A study of Homo sapiens with 3 samples.

Results

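The genes described here are 9 markers of the glial lineages: OLIG1, OLIG2, SOX10, PDGFRA and MBP for oligodendrocytes and their precursors, and GFAP, AQP4, S100B and SLC1A3 for astrocytes. Around them, 53 of the 65234 accessible regions in the list had a summit, the point of highest signal, inside a gene or within 50 kb of its outer ends. Regions that the neighbours OLIG1 and OLIG2 share were counted once. The regions were selected on their measured summit positions and, for a stricter count, on the deposited score, and the genes were chosen with earlier results of these data in view. Their counts and strengths are therefore a description and carry no test.

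The regions come from ATAC-seq, in which Tn5 transposase cuts accessible DNA, on human neurons made with NGN2 from induced pluripotent stem cells of 1 established line, KOLF2.1J. The labels name the cells KOLF2.1J-hNGN2, and they were collected after 14 days of neuronal differentiation. The single group had 3 biological replicates, and the analysis rests on 1 list that they share, with no value per replicate. No spread between replicates can therefore be given, and no second condition was compared.

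Neurons and macroglia arise from shared progenitors in the developing nervous system. NGN2 is a basic helix-loop-helix (bHLH) factor that drives neuronal differentiation. OLIG1 and OLIG2 are bHLH factors of the oligodendrocyte lineage, OLIG2 also acts in motor neuron progenitors, and SOX10 is a factor that sustains oligodendrocyte differentiation. Accessible DNA at a gene is no measure of its expression, and in a culture a region open in few cells cannot be told apart from one weakly open in many.

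Of the 9 genes, 7 had a region summit within 1 kb of a RefSeq start or, for the 5 genes whose starts were represented by both outer ends (OLIG1, OLIG2, SOX10, GFAP and S100B), of an end. SOX10 and GFAP had none. Across 20037 protein-coding genes treated in the same way the share was 69.8%, so 7 of 9 lay near the background. With regions of score 830 or more the count was also 7, against 68.2% of all genes. The deposited score runs from 540 to 1000, and how it was scaled is not given in the sources used here.

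The labelled cell type was set against markers of other cells. All 8 pan-neuronal genes (such as MAP2, TUBB3, RBFOX3 and DCX) and all 7 neural progenitor genes (such as SOX2, PAX6 and NES) had a region at a start. Over all protein-coding genes the share was 69.8%. For SNAP25, STMN2, POU5F1, LIN28A and SPI1 among the markers, both outer ends stood for starts. None of 7 microglial genes (such as CX3CR1, P2RY12 and TREM2) had one, where 0 of 7 still allows a share as high as 42.9% (3 counts of the total). Among 5 pluripotency genes the number was 2 (LIN28A and DPPA4), with POU5F1, NANOG and CRIPTO (listed as TDGF1) lacking one. These counts were not tested against each other or against the 7 of 9 glial genes. The part of progenitor or glial cells in the cultures was not tested.

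Individual starts differed within the genes. The RefSeq promoter table lists 10 starts for PDGFRA, MBP, AQP4 and SLC1A3, and 7 of them had a summit within 1 kb, against 69.1% of 22183 listed starts of protein-coding genes. The promoters below, from RefSeq on GRCh38.p14, show the contrast: the accessible SLC1A3 and PDGFRA starts with the strongest regions (1 start for each region), and the starts without a region that have the most (MBP) and the fewest (SLC1A3) CpG dinucleotides. Each is the 250 bases before the start, 5′ to 3′ along the gene, with CpG dinucleotides in capitals.
SLC1A3, inner start, chr5:36606356-36606605, plus strand: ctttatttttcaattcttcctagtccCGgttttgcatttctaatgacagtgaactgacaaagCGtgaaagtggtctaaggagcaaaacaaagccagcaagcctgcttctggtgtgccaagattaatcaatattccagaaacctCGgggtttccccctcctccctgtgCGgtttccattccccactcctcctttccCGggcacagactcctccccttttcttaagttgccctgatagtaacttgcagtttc
PDGFRA, inner start, chr4:54233710-54233959, plus strand: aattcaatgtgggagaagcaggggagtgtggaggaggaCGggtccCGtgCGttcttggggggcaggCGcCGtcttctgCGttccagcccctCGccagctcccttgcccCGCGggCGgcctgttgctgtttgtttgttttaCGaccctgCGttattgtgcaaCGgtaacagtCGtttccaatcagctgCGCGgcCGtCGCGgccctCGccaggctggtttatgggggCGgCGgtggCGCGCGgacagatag
MBP, inner start, chr18:77017056-77017305, minus strand: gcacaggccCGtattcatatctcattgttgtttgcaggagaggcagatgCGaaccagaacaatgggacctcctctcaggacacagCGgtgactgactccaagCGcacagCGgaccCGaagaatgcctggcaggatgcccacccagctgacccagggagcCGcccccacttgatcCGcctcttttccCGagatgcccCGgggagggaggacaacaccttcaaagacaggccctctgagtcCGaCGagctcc
SLC1A3, outermost start, chr5:36596338-36596587, plus strand: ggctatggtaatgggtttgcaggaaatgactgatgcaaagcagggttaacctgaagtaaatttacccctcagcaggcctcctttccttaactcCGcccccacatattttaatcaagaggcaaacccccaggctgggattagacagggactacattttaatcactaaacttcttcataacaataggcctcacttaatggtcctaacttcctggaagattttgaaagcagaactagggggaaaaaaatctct

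SLC1A3 encodes GLAST, a glutamate transporter of radial glia and astrocytes, and its inner start carried the strongest region at any start of the 9 genes. The region spanned 36606139 to 36607382 on chromosome 5 with a fold enrichment of 12.5. This is the authors' ratio of tags at the summit to a background level. That level was the same, 29.2 tags, at some regions of PDGFRA, GFAP and AQP4, so it was not local for every region. At the SLC1A3 summit 1031 tags were counted (95% interval 969 to 1096, exact Poisson). The summit falls on base 214 of the printed inner promoter. That promoter has 5 CpG in its 250 bases, and the outermost one, with no summit nearer than 5.40 kb, has 1. A further start, at 36606954, lay in the same region, so both inner starts of SLC1A3 were accessible and the outermost was not.

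PDGFRA, the receptor for platelet-derived growth factor that marks oligodendrocyte precursors, showed a split between its starts only under the 1 kb limit. The region at its inner start spanned 54232875 to 54234558 on chromosome 4, with 6 summits, a fold enrichment of 8.02 and 1002 tags (interval 941 to 1066) at the strongest. Of its summits, 2 fall within the printed promoter, at bases 4 and 230, with fold enrichments of 3.11 and 3.24. The outermost start had no summit within 1 kb, but one stood 1070 bp away in a region of fold enrichment 6.09 with 629 tags. That start therefore fell just outside the 1 kb limit, and it is counted as accessible with a limit of 2 kb.

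MBP encodes myelin basic protein, a major protein of compact myelin. As background, its classical myelin transcripts start inside the gene, and longer Golli transcripts start far upstream. The upstream start had a summit 32 bp away, with a fold enrichment of 3.34 and 153 tags, in a region from 77131750 to 77133715 on chromosome 18 whose strongest summit reached 3.58. The inner start printed above had no summit nearer than 16.2 kb. Accessibility at MBP starts in these neurons was thus found at the upstream start and not at the inner one.

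AQP4, the water channel of astrocyte endfeet, had a summit within 1 kb of all 3 listed starts, in weak regions. The region at its outer pair of starts, from 26865273 to 26865827 on chromosome 18, had a fold enrichment of 2.83, a score of 614 and 120 tags (interval 99.5 to 143). It stood at percentile 2.77 of all regions by fold enrichment, and it also lies at an end of the antisense gene AQP4-AS1, so it cannot be assigned to one of them. The region at the inner start, from 26863063 to 26863925, reached a fold enrichment of 3.87, the full score of 1000 and 160 tags.

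**Figure D1:**
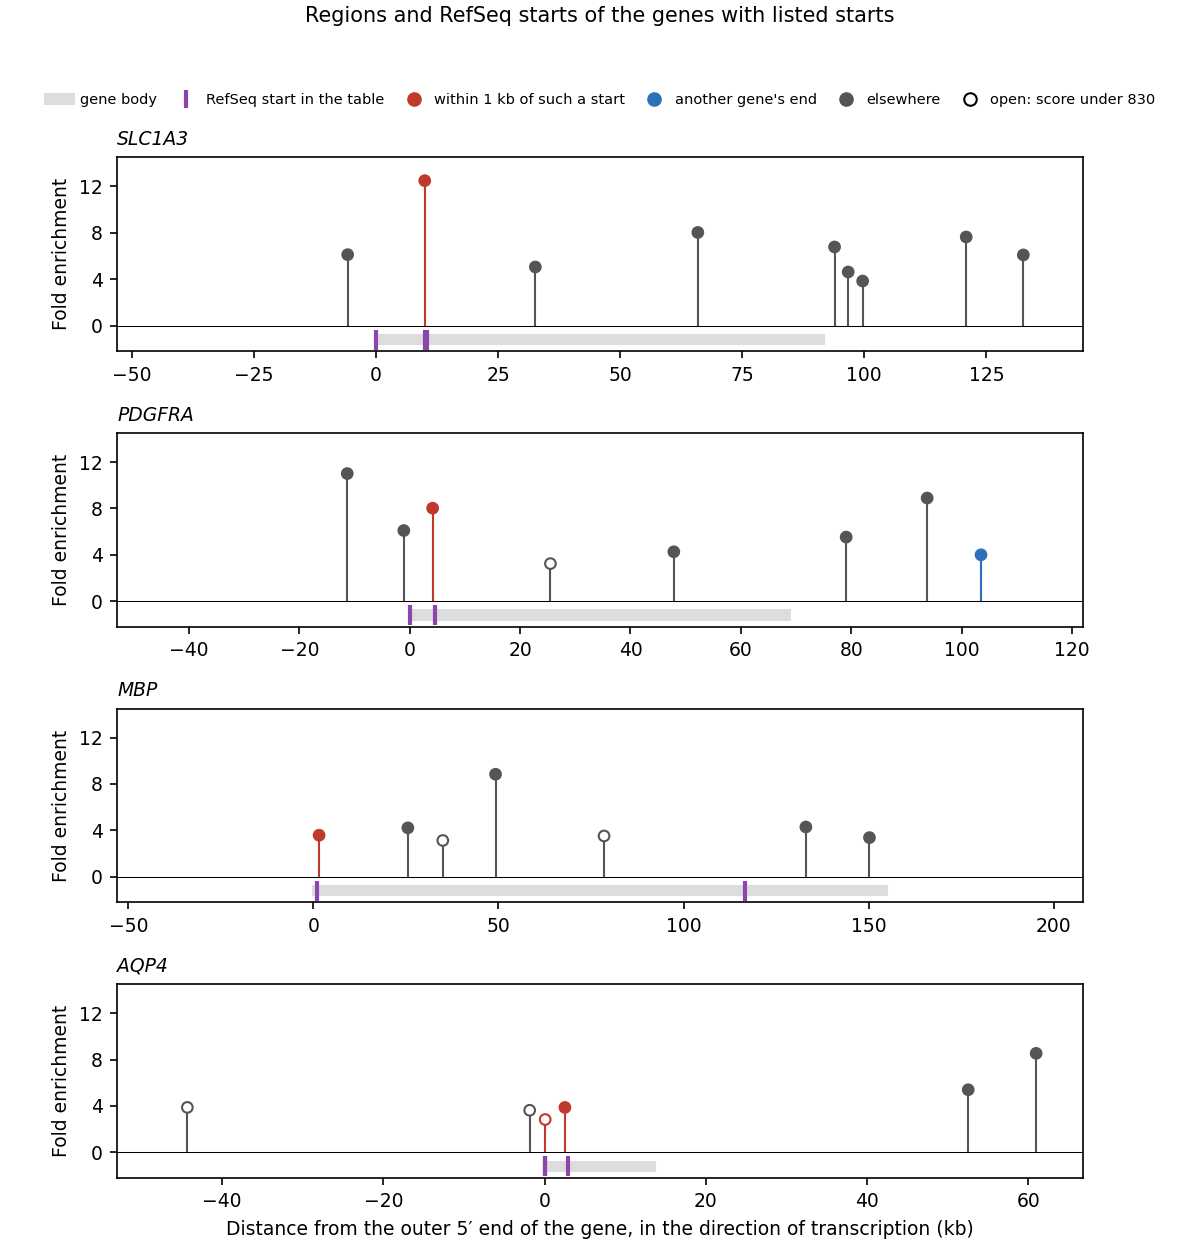
Fold enrichment of each region (vertical lines, the authors' ratio) against distance in kb from the outer 5′ end for SLC1A3, PDGFRA, MBP and AQP4, with gene bodies as grey bars, listed RefSeq starts as purple ticks and open symbols for a score under 830. The red regions at inner starts of SLC1A3 and PDGFRA reach 12.5 and 8.02, and the inner MBP start has no region near it.

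The base composition of the promoters differed widely among these starts. Over the 300 bp of each table entry, from 250 bases before to 50 after a start, the listed starts of protein-coding genes had a median of 21 CpG. The upstream MBP start had 44 and the inner PDGFRA start 32, whereas the AQP4 starts had 2, 4 and 4. Across the genome, 16.9% of 4031 starts with 0 to 4 CpG had a region within 1 kb (Wilson 95% interval 15.8 to 18.1%), against 93.9% of 6409 starts with 30 or more (93.3 to 94.5%). The 3 AQP4 starts, which share 2 regions, were thus accessible in a class where most starts were not. The inner SLC1A3 starts, with 9 and 10 CpG, came from classes in which 37.9% and 61.0% of starts had a region.

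**Figure D2:**
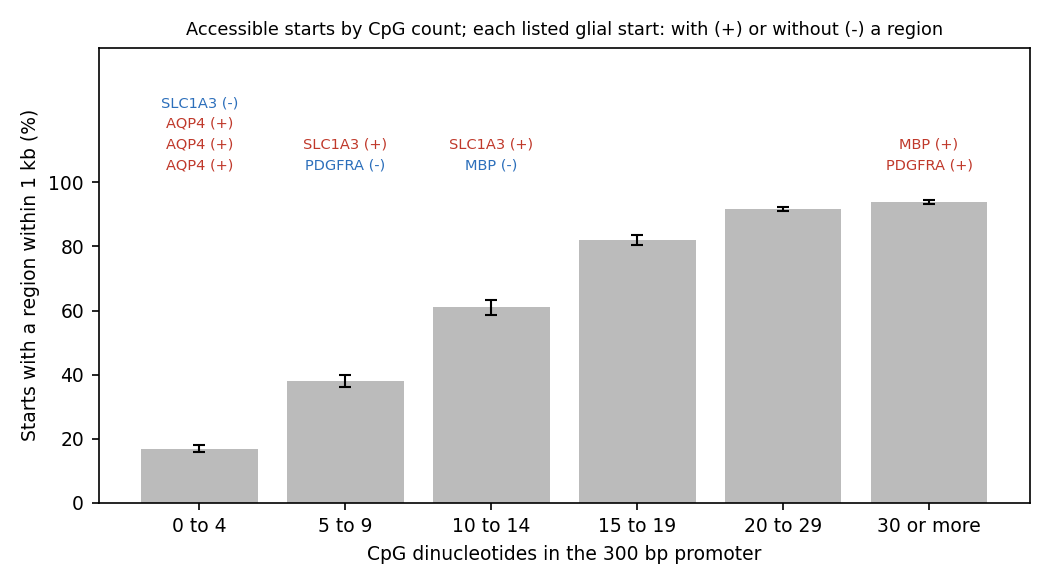
Share of RefSeq starts of protein-coding genes with a region summit within 1 kb (bars, in percent, with Wilson 95% intervals) by CpG count of the 300 bp promoter, with the 10 listed glial starts named above their class as with (+) or without (-) a region. The bars rise from 16.9% to 93.9%, and the 3 AQP4 starts with a region sit above the lowest bar.

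A few short words were looked for on both strands of the same 300 bp promoters, as letters and not as binding sites. The general E-box CANNTG, the word of bHLH factors, was found in 8 of the 10 member promoters and in 65.1% of 22183 promoters. The promoters of the outer pair of AQP4 starts, both among the 8, overlap, so they are not separate sequences. CAGATG, a form of the E-box linked to NGN2 and counted also under CANNTG, was found at the inner MBP start and in 12.2% of all promoters. ACAAAG, a SOX-type word, had 2 matches at the SLC1A3 start whose region was strongest and none at the other 9, against 13.6% of all promoters with a match. TATAAA was found at the inner AQP4 start, against 9.47% of all promoters. TTCNNNGAA, a STAT-type word, was found there and at the outermost SLC1A3 start, against 6.79%. The full NFI palindrome was in none of the 10 and in 0.027% of all promoters.

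OLIG2 (chromosome 21, 33025935 to 33029185) and OLIG1 (33070141 to 33072413) lie 41.0 kb apart. Their windows were therefore largely the same sequence. Each window held 8 regions, of which 6 were in both, so the pair had 10 distinct regions and not 16. A further 2 belonged to the OLIG2 window alone and 2 to the OLIG1 window alone. No other protein-coding gene lay in the joint window of 146.5 kb. The nearest ones were EPCIP, 212.2 kb from OLIG2, and IFNAR2-IL10RB, 157.5 kb from OLIG1. By nearest protein-coding end, 4 of the 10 regions fell to OLIG2 and 6 to OLIG1.

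Both OLIG genes had a region at their lower-coordinate end, and the pair was closely matched in strength. The OLIG2 region, from 33025330 to 33026314, had its single summit 210 bp outside the gene, a fold enrichment of 6.76 and 467 tags (interval 426 to 511). The OLIG1 region, from 33069816 to 33071202, had its strongest summit 62 bp outside the gene, a fold enrichment of 6.68 and 439 tags (interval 399 to 482). The counting intervals of the tags overlap. These regions stood at percentiles 63.2 and 62.4 of all regions by fold enrichment.

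Between the 2 genes there were 3 regions. They spanned 33039482 to 33039947, with a fold enrichment of 4.51 and 157 tags, 33051871 to 33052372, with 4.85 and 151 tags, and 33064179 to 33065137, with 4.49 and 168 tags. The last lies in the non-coding gene LINC00945, 5.31 kb from OLIG1. Their tag intervals overlapped, so the 3 could not be ranked by tags. The regions between the genes were weaker in tags than those at either gene, with intervals that did not overlap.

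The outer flanks of the locus differed in strength. Beyond OLIG2 the regions from 33019849 to 33020528, 5.87 kb away, and from 32976951 to 32978219, 48.4 kb away, both had a fold enrichment of 3.65, with 174 and 137 tags. Beyond OLIG1 came a weak region from 33075229 to 33076013, 2.93 kb away, with a fold enrichment of 2.87 and 167 tags. Farther out were 33100884 to 33102010, 29.1 kb away, with 6.38 and 220 tags, and 33112624 to 33113808, 41.0 kb away inside the non-coding gene LOC101928107. The latter was the strongest of the 10, with a fold enrichment of 7.07 and 526 tags (interval 482 to 573), a tag interval that overlaps that of the OLIG2 region. The strongest distal element of the locus therefore belonged to the OLIG1 window alone, and all 10 regions stood at or below percentile 66.1 of the list.

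**Figure D3:**
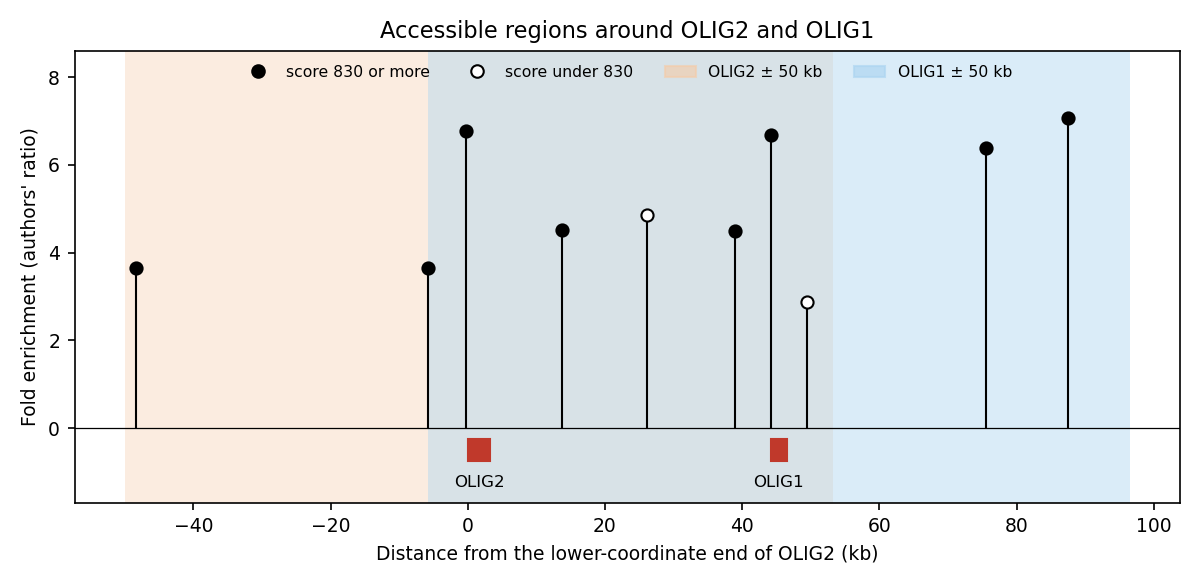
Fold enrichment (authors' ratio) of the 10 regions around OLIG2 and OLIG1 against distance in kb from the lower-coordinate end of OLIG2, with the 50 kb windows shaded (overlap in grey-blue), gene bodies in red and open symbols for a score under 830. The regions at the 2 genes reach 6.76 and 6.68, the 3 between them lie between 4.49 and 4.85, and the highest, 7.07, is at the far side of OLIG1.

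The limits of the rule touched this locus. The region 5.87 kb from OLIG2 missed the OLIG1 window by 80 bp, so the number of shared regions would be 7 with a slightly wider window. Of the 10 regions, 8 had a score of 830 or more, and the 2 below it, with scores of 816 and 807, were both shared by the genes. Just inside the limit, the outermost OLIG2 region had a summit of fold enrichment 1.92 at 48.9 kb. Among the other genes the nearest summit beyond 50 kb was at GFAP, 52.5 kb from its end, with a fold enrichment of 2.29. The lowest score at or above 830 was 845 at MBP.

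SOX10 (chromosome 22, 37972312 to 37984555) had no region inside the gene, and the nearest summit stood 6.95 kb from an end. Its window held 4 regions. The strongest, from 37953014 to 37954322 with a fold enrichment of 13.5 and 870 tags, lay where the ends of POLR2F and C22orf23 meet, and so belongs by position to other genes. The nearest to SOX10, from 37964907 to 37965489, reached a fold enrichment of 4.62 and 158 tags and lay inside POLR2F, a gene for an RNA polymerase subunit whose body contains SOX10. The other 2 had fold enrichments of 6.51 and 4.47, inside MICALL1 and POLR2F.

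PDGFRA (chromosome 4, 54229293 to 54298245) had 8 regions, of which 3 were inside the gene. The strongest by fold enrichment lay 11.3 kb before the outermost start, from 54217523 to 54218396, at 11.0 with 503 tags (interval 460 to 549). A second strong region, from 54322716 to 54323229, stood 24.8 kb beyond the other end, at 8.89 with 335 tags. Beside these and the region 1070 bp before the outermost start, 3 others away from the starts had fold enrichments of 3.24, 4.26 and 5.53, and 1 of 4.00 lay at an end of LINC02283. All 8 were nearer to a PDGFRA start than to that of any other protein-coding gene.

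MBP (chromosome 18, 76978833 to 77133708) is the longest of the 9 genes at 154.9 kb, and all 7 of its regions were inside it. The strongest, from 77084078 to 77085036, reached a fold enrichment of 8.84 and 395 tags (interval 357 to 436), 48.3 kb from the nearest listed start. The other 6 had fold enrichments of 3.13 to 4.29 and 136 to 158 tags, and their counting intervals overlapped. Per 100 kb of window MBP had 2.75 regions, the lowest density of the 9 genes.

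GFAP (chromosome 17, 44903159 to 44915500), the intermediate filament of astrocytes, had no region inside the gene. Of 5 regions in its window, the 2 strongest lay at ends of other genes. These were 44898965 to 44900217 where DNAAF19 and EFTUD2 meet, with a fold enrichment of 10.4 and 738 tags, and 44947127 to 44948487 at an end of KIF18B, with 12.7 and 637 tags. The region nearest to GFAP, from 44916425 to 44917372, reached a fold enrichment of 3.62 and 251 tags, and the closer of its 2 summits stood 1.42 kb outside the gene. It was followed by 44919869 to 44920444, 4.68 kb away, with 5.02 and 335 tags. The fifth, inside EFTUD2 and nearest to the HIGD1B end, had 4.53 and 136 tags. A limit of 2 kb in place of 1 kb adds GFAP to the genes with an accessible end, which makes 8 of 9.

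AQP4 (chromosome 18, 26852038 to 26865803) had 6 regions, and its strongest lay away from the gene. That region, from 26804295 to 26805474, reached a fold enrichment of 8.53 and 355 tags (interval 319 to 394) and stood 47.2 kb beyond the lower-coordinate end. The next, from 26813075 to 26813498, had 5.39 and 162 tags. A score under 830 was found for 3 of the 6 AQP4 regions, more than for any other of the 9 genes.

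S100B (chromosome 21, 46598604 to 46605082), a calcium-binding protein of astrocytes, had a region at each of its ends. These were 46598716 to 46599774, with a fold enrichment of 8.87 and 463 tags (interval 422 to 507), and 46604743 to 46605768, with 6.83 and 284 tags (interval 252 to 319). The remaining 2 regions of its window were stronger by fold enrichment and nearer to PRMT2, an arginine methyltransferase gene. They had fold enrichments of 15.9 at the PRMT2 end, with 2018 tags, and 11.1 between the genes, from 46621402 to 46622954, with 469 tags.

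SLC1A3 (chromosome 5, 36596588 to 36688334) had 9 regions, the most of the 9 genes, and every one had the full score of 1000. Beside the region at the inner starts, the strongest were 36661857 to 36663110 inside the gene, at 8.04 with 455 tags, and 36717106 to 36718212, at 7.65 with 545 tags. The latter is 1 of 4 regions beyond the far end of the gene and inside the antisense gene SLC1A3-AS1. The other 3, from 36689940 to 36696453, had fold enrichments of 6.78, 4.63 and 3.85 with 674, 490 and 248 tags. The background at these 4 regions was 63.7 to 105.1 tags, against 33.0 to 81.6 tags at the 3 regions inside the gene.

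**Figure D4:**
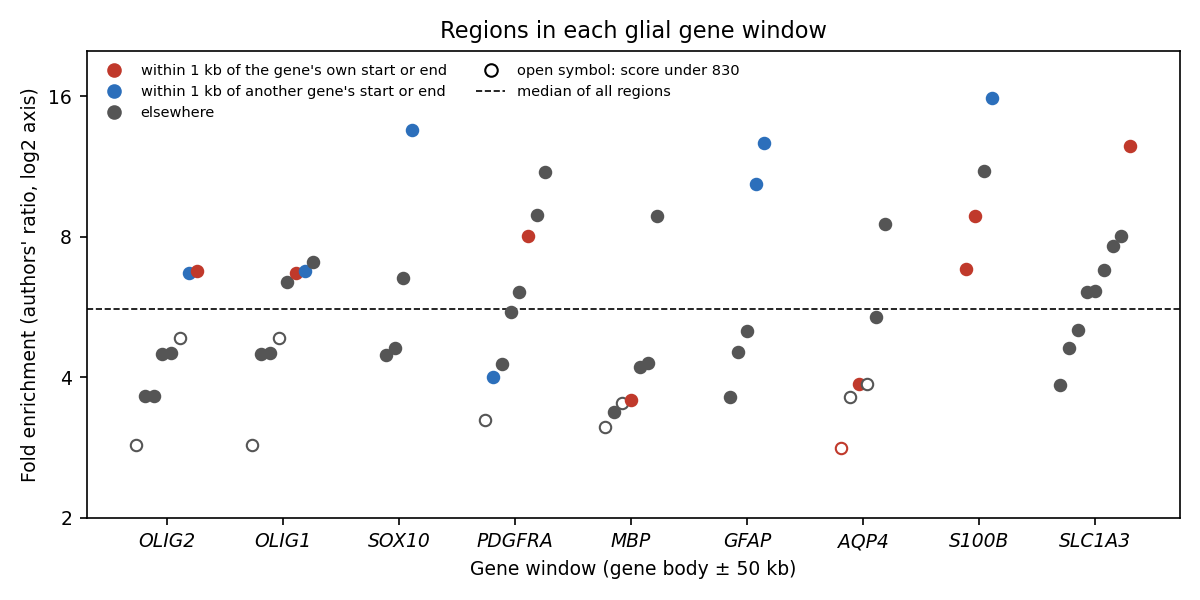
Fold enrichment (authors' ratio, log2 axis) of every region in the window of each gene, red within 1 kb of the gene's own start or end, blue within 1 kb of another gene's, grey elsewhere, open for a score under 830, and a dashed line at the median of all regions, 5.60. The highest points of SOX10, GFAP and S100B are blue and belong to neighbouring genes, and regions shared by OLIG1 and OLIG2 are drawn in both columns.

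Taking the 53 regions together, 9 lay at a start or end of the glial gene itself, 5 at one of another gene and 39 at neither. The 14 at any gene's start or end make 26.4%, against 26.3% of all regions. The median fold enrichment was 6.76 for the 9 regions, 12.7 for the 5 and 4.63 for the 39. All regions of the list away from gene starts had a median of 5.08 and quartiles of 3.94 and 6.94. The median of the 39 glial ones thus lay between those quartiles, in their lower part. Of the 53, 24 were above the median of all regions, and 45 (84.9%, Wilson 95% interval 72.9 to 92.1%) had a score of 830 or more, against 84.7% of all regions.

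By number of regions, the 9 windows ranged from 4 at SOX10 and S100B and 5 at GFAP to 9 at SLC1A3. The median over the 9 genes was 7 regions, against 5 over all protein-coding genes, where the quartiles were 3 and 7. More than 5 regions were found for 6 of the 9, against 39.4% of all genes, and 8 or more for 4 of the 9 (OLIG1, OLIG2, PDGFRA and SLC1A3), against 21.0%. Each had at least 4, as did 66.1% of all genes. Counting regions away from every gene start, 6 of the 9 genes had 4 or more, against 30.4%. In all these counts per gene OLIG1 and OLIG2 entered separately, although 6 of the 8 regions of each are the same. These counts are what the rule selects on, so nothing is read from them.

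Per 100 kb of window, OLIG2 had 7.75 regions and OLIG1 7.82, each counting the shared regions, against a median of 3.12 for all genes. With the shared regions counted once, their joint window had 6.83 per 100 kb, and the other 7 genes had between 2.75 and 5.27. On chromosome 21, where the median gene had 3 regions, 7.53% of 239 protein-coding genes had 8 or more. Without both genes the other 7 had 43 regions and a median of 6, and 5 of these 7 had a region at a start or end. With a score of 830 or more there were 45 regions, or 37 without the OLIG pair. The median per gene was then 5, against 4 for all genes. Of the 9, 4 then had 6 or more, against 32.5% of all genes. These include OLIG1 and OLIG2, which share 4 regions of that score. With windows of 20 kb the median was 3 for the glial genes and for all genes, and with windows of 100 kb it was 10 for the glial genes and 8 for all.

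**Figure D5:**
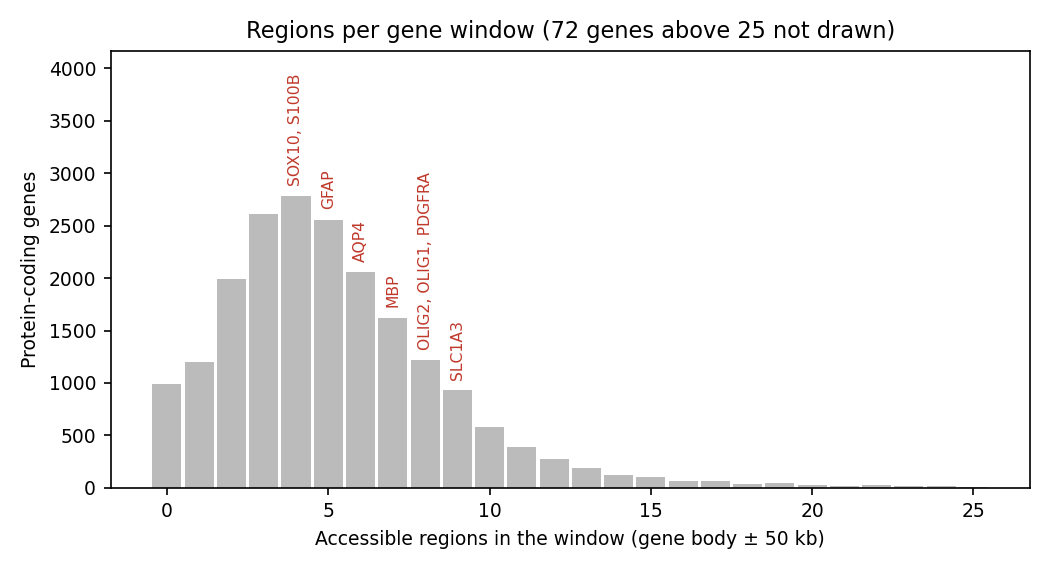
Number of protein-coding genes (bars) by the number of accessible regions in the gene body and 50 kb either side, with the 9 glial genes named above their bar and genes above 25 regions not drawn. The glial genes sit between 4 and 9 regions, around and above the median gene at 5.

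Other glial genes were described from 2 further lists, also drawn up with earlier results known. Of 18 other oligodendrocyte lineage genes, 9 had a region at a start, against 69.8% of all genes. As above, both outer ends stood for starts where none was listed. Those without one included the factors NKX2-2, NKX6-2 and ST18, the precursor proteoglycan gene CSPG4, the enzyme gene ENPP6, and the myelin genes MOG, MAG and MOBP. The receptor gene ERBB3 had the strongest such region of the list, at a fold enrichment of 15.6. Its outer ends stood for starts, so this region could lie at either end of the gene. Whether it lies at the start of a neighbouring gene was not examined, so it is not assigned to ERBB3. Of the 10 regions in the ERBB3 window, 3 lay away from every gene start. The median window held 5.5 regions, with the most at ST18 (12), ERBB3 (10) and CSPG4 (9), and among the lowest were NKX6-2, MOBP and UGT8, with 2 each. CSPG4 and ST18 thus had high counts in their windows and no region at a start or end of their own. Per 100 kb of window, CSPG4 had 6.47 regions and ST18 3.01, against a median of 3.12 for all genes. Of the 9 CSPG4 regions, 4 lay away from every gene start.

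Of 18 other astrocyte genes, 15 had a region at a start, against 69.8% of all genes counted in the same way. The exceptions were GJB6, a connexin gene, HEPACAM, an adhesion gene, and APOE, the apolipoprotein gene. The median window held 6 regions. The most were at NFIB (26), NFIA (19) and NFIX (17), factors of the NFI family that act in gliogenesis and in neurons, and the fewest at the glutamine synthetase gene GLUL (2) and the matrix gene TNC (3). The progenitor and glial fatty acid-binding protein gene FABP7, which is also among the progenitor genes above, had the strongest start region, at 14.0, and is named here after its values were seen. In both lists long genes have longer windows, and whether the lists differ from each other was not tested.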

How the data were processed

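ATAC-seq of 3 samples of 1 group was analysed as the 1 peak list in the deposited file, named in the labels as the optimal set by irreproducible discovery rate. The build is hg38 per the submitters' processing notes. Aligner, peak caller, versions and filters are not given in the sources used here. The authors deposited per entry a score, a fold enrichment (linear ratio) and a −log10 p value. The depth per sample is unknown.

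From these, 145092 entries were merged into 65234 distinct regions with the values of the entry of highest −log10 p. Tag counts of the pooled data were recovered from ratio and p-value under a Poisson upper tail, with 1 added to tags and background in the ratio. For 99.999% of entries they came out whole within 0.01 tags. They ranged from 58 to 3783 per region. Exact Poisson and Wilson 95% intervals cover counting error only, since PCR reads are not independent molecules. Gene ends and promoters came from RefSeq tables for GRCh38.p14. Windows were gene bodies plus 50 kb, and a region counted by any summit. Positions count from 1.

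All listed symbols were matched, TDGF1 by its older symbol. The members and lists were chosen with earlier results of these data known. Genes named are the 9 members, the 3 highest and lowest of each further list and those without a region at a start, except for an item that is not reported here. No tests were made, since 1 pooled list has no replicate error. Code was tested on simulated data. Python 3.11.15, numpy 2.4.6, scipy 1.17.1, pandas 2.3.3 and matplotlib 3.10.9 were used. Alternatives were other scores, strengths, windows, overlaps, summits, entries, members, assignments and start limits.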

Additional observations from a re-analysis of the deposited data

How the results depend on the processing

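Of 54 values recomputed for 6 results, 42 stayed within the limit set for them (a factor of 1.5 for counts, and for the median fold enrichment and the share the 95% intervals of 4.26 to 6.10 and 72.9 to 92.1%). The other 12 follow from how much sequence, or which entries, a setting admits. Keeping regions above the median fold enrichment gave 24 regions in place of 53, a median of 2 per gene, 4 in the OLIG windows, a median fold enrichment of 7.36 and a share of 100% with a score of 830 or more. Counting summit entries in place of regions gave 116 entries, a median of 13 per gene, 18 in the OLIG windows and a median fold enrichment of 3.65. Windows of 100 kb gave 83 regions and 16 in the OLIG windows, and windows of 20 kb a median of 3 per gene. Over its alternatives the number of glial genes with a region at a start or end ranged from 5, with outer ends of all genes in place of listed starts, to 8, with a limit of 2 kb or any overlap, and was 5 of 7 without the OLIG pair. No paired analysis was possible because there is a single group, with 1 pooled list. Leaving out single replicates could not be tried for that reason.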

Other observations

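The windows of the 7 neural progenitor genes used as a check held 5 to 12 regions, with a median of 7, the same as for the 9 glial genes. NES, the intermediate filament gene of progenitors, had the most, 12, and VIM, another intermediate filament gene, the fewest, 5. Per 100 kb of window the median was 6.20 for the progenitor genes and 4.69 for the glial genes, a difference that was not tested, and OLIG1 and OLIG2 lay above that progenitor median. The 7 microglial genes, none with a region at a start, had 0 to 7 regions in their windows, from TREM2, a microglial receptor gene, with 0 to the lysosomal gene CD68 with 7. Their median of 5 was that of all protein-coding genes. FABP7 is in both the progenitor and the astrocyte list.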
